A study of Mus musculus with 59 samples.

Results

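Prefrontal cortex from wild-type mice was compared between fluoxetine and vehicle, with mice taken from a study of Dyrk1a heterozygous (Dyrk1a+/I48X) and wild-type C57BL/6J mice given fluoxetine, lithium or vehicle. The comparison takes every library labelled wild-type with fluoxetine or vehicle, which makes 19 of the 59 libraries. Wild-type fluoxetine mice were 5 females and 4 males, and wild-type vehicle mice were 5 females and 5 males. All 19 carry normal Dyrk1a, the gene of a dosage-sensitive protein kinase, and were C57BL/6J. Pups took in the drug or the vehicle with the milk of the dam from postnatal day 3 to day 24, for 3 weeks, and were analysed at day 25. The dose is not given in the sources used here. Litters are not named in the labels. Since littermates nurse from the same dam, litter and drug cannot be told apart, and the p-values speak only of the spread among these mice.

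Fluoxetine is a selective serotonin reuptake inhibitor: it blocks the serotonin transporter on the terminals of raphe neurons, which project to the whole cortex. Like other cationic amphiphilic drugs it also collects in lysosomes and membranes. Cholesterol in the brain is made locally, by the mevalonate and sterol pathway, whose genes are switched on together by the transcription factor SREBP-2 (Srebf2) when the sterol content of the endoplasmic reticulum is low. Immediate early genes such as Fos and Arc are transcribed within minutes of strong synaptic activity and report recent neuronal firing.

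Libraries held 24391022 to 31329276 counts, with a median of 26397524, and 17365 of 18088 genes reached a normalised count of 10 in at least 4 of the 19 libraries and were tested. Replicates of a group differed by more than counting error in each of 36 pairs (chi-square per gene 3.05 to 49.7). Levels are normalised counts, which compare mice but not genes of different length. Changes are log2 fold changes of fluoxetine over vehicle computed as log2(value + 1), ± SE, and a gene is called where the Benjamini-Hochberg adjusted p over all tested genes was under 0.05. In bulk tissue, fewer cells of a type and less RNA per cell cannot be told apart. All 20 markers of cortical projection neurons on the list used were measured, and their summed level ran from 194709 to 232961 in fluoxetine mice and from 179320 to 259318 in vehicle mice.

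The libraries also held RNA of olfactory bulb neurons, in amounts that differed between the groups. Doc2g, a marker of mitral and tufted cells, had a lowest, median and highest level of 1242, 2504 and 3634 in fluoxetine mice, against 115, 278 and 4534 in vehicle mice. Cdhr1, a cadherin of the same cells, had 2019, 3926 and 5659 in fluoxetine mice, against 116, 434 and 6695 in vehicle mice. All 9 fluoxetine mice carried much of this RNA, whereas vehicle mice ran from nearly none to the highest level of the 19.

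As the mean log2 level of both markers, the difference was 2.32 with sex as a block, 11.5 ± 0.46 in fluoxetine mice (SD, n = 9) and 9.15 ± 2.01 in vehicle mice (SD, n = 10), with an exact 2-sided permutation p = 0.00416. In females the levels were 11.4 ± 0.53 with fluoxetine and 10.4 ± 2.001 with vehicle (SD, n = 5 each), and the groups overlapped (exact permutation p = 0.365). In males they were 11.8 ± 0.28 with fluoxetine (SD, n = 4) and 7.92 ± 1.15 with vehicle (SD, n = 5). The male groups did not overlap: fluoxetine males ran from 11.5 to 12.1 and vehicle males from 6.87 to 9.85 (exact permutation p = 0.0159). In males, marker level and drug therefore cannot be told apart, and the comparison was made both without and with this marker level as a covariate.

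**Figure D1:**
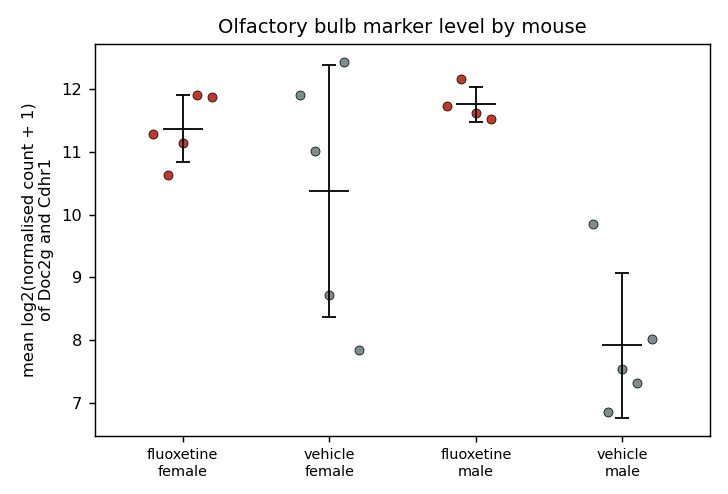
Mean log2(normalised count + 1) of the olfactory bulb markers Doc2g and Cdhr1 (y axis) in each mouse, by drug and sex (x axis). Points are mice, the bar is the group mean and whiskers are the SD. Fluoxetine males run from 11.5 to 12.1 and vehicle males from 6.87 to 9.85, and vehicle females run from 7.85 to 12.4.

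Without the allowance, 446 of 17365 genes were called by limma with sex as a block, 2.57% of those tested. Of these, 220 were higher with fluoxetine (1.27%) and 226 were lower (1.3%). With the allowance, 11 genes were called (0.0633%), 3 higher (0.0173%) and 8 lower (0.0461%). Of the 220 genes called higher without the allowance, 217 kept their sign with it, 2 were called and 82 had an unadjusted p under 0.05, and their median log2 fold change was 0.13 with the allowance and 0.33 without it. Of the 226 called lower, all 226 kept their sign, 8 were called and 149 had an unadjusted p under 0.05, and their median was -0.15 with the allowance and -0.22 without it. The covariate also widened the errors: the median standard error over all tested genes was 0.072 with it and 0.063 without it. The median log2 fold change of all tested genes was 0.01 with the allowance and -0.00 without it. These counts rest on single libraries: leaving out 1 library gave 54 genes (without fluoxetine male 4) to 2727 (without vehicle female 4) without the allowance, and 0 (without vehicle female 1) to 51 (without fluoxetine female 5) with it.

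Genes of cholesterol synthesis and transport were lower with fluoxetine. Of the 27 genes on the list, 17 fell, 0 rose and 10 did not pass the limma test without the allowance, against the 1.3% of all genes called lower, and 5 of the 27 fell with it, against 0.0461%. When 1 library was left out these counts ran from 12 to 20 without the allowance and from 0 (without vehicle female 1) to 5 with it. The median log2 fold change of the 27 was -0.21 without the allowance and -0.16 with it, where that of all genes was close to 0. Of the 17 that fell, 12 had a smaller change with the allowance. The 17 were spread along the pathway, and among them were Hmgcs1 and Mvk of the mevalonate steps, Idi1, Fdps, Fdft1 and Sqle up to squalene epoxide, Cyp51, Msmo1, Nsdhl, Hsd17b7 and Sc5d of the sterol steps, the sterol carrier Stard4, and the regulators Insig1 and Srebf2. In 15 of the 17, each of the 9 fluoxetine mice was below the mean of vehicle mice of its sex. The 17 were picked as called lower in these same mice, so this count describes them and adds no separate support. The summed level of the list was 48227 to 52041 in fluoxetine mice and 53593 to 65253 in vehicle mice, so the groups did not overlap. A level summed over genes of different length is weighted towards the long and abundant ones.

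Stard4, which carries cholesterol between membranes (chromosome 18, 33199355 to 33213862 on GRCm38, minus strand), had a lowest, median and highest level of 650, 756 and 834 in fluoxetine mice, against 872, 1041 and 1274 in vehicle mice. The groups did not overlap, in either sex. The log2 fold change was -0.47 ± 0.06 without the allowance, a level 28.0% lower (limma adjusted p = 0.00067), and -0.49 ± 0.08 with it (adjusted p = 0.0127).

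Idi1, the isomerase that makes dimethylallyl diphosphate (chromosome 13, 8885501 to 8892451, plus strand), had 1640, 1849 and 2001 in fluoxetine mice, against 2128, 2372 and 2681 in vehicle mice. No fluoxetine mouse reached the lowest vehicle mouse. Its log2 fold change was -0.33 ± 0.04 without the allowance (limma adjusted p = 0.00137) and -0.37 ± 0.06 with it (adjusted p = 0.0127).

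Cyp51, the lanosterol demethylase (chromosome 5, 4081145 to 4104746, minus strand), had 1748, 2000 and 2337 in fluoxetine mice, against 2342, 2529 and 2896 in vehicle mice. The groups met closely at the edge but did not overlap. The log2 fold change was -0.35 ± 0.05 without the allowance (limma adjusted p = 0.00208) and -0.35 ± 0.06 with it (adjusted p = 0.0397).

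Insig1, the endoplasmic reticulum protein that holds back SREBP when sterol is plentiful and is itself an SREBP target (chromosome 5, 28071363 to 28078662, plus strand), had 1541, 1608 and 1988 in fluoxetine mice, against 1823, 1963 and 2326 in vehicle mice. The overlap came from a single fluoxetine male at 1988, and the other fluoxetine mice were at or below 1662. The log2 fold change was -0.29 ± 0.05 without the allowance (limma adjusted p = 0.00576) and -0.36 ± 0.06 with it (adjusted p = 0.0189).

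Hmgcs1, the synthase that opens the mevalonate pathway, had 7851, 8653 and 9564 in fluoxetine mice, against 9290, 11090.5 and 12728 in vehicle mice, a log2 fold change of -0.34 ± 0.05 without the allowance (limma adjusted p = 0.00276). With it the change was -0.25 ± 0.06, which did not pass (adjusted p = 0.112).

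Members of cholesterol export and turnover did not pass. Abca1 and Abcg1, which export cholesterol from cells, had log2 fold changes of 0.16 ± 0.10 and -0.01 ± 0.03 without the allowance. Cyp46a1, the neuronal enzyme that turns cholesterol into its exported hydroxylated form, had -0.05 ± 0.05. Among the synthesis genes, Mvd was just beyond the threshold at -0.16 ± 0.04 (limma adjusted p = 0.0504), and Pmvk, Lss, Tm7sf2, Ebp and Dhcr7 ranged from -0.17 to -0.05.

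**Figure D2:**
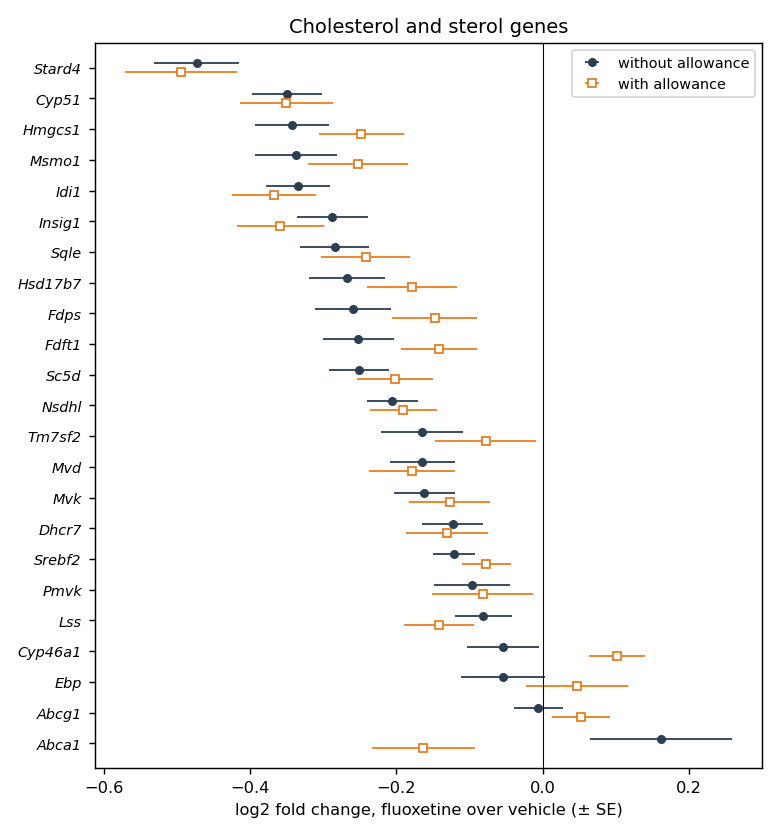
Log2 fold change of fluoxetine over vehicle (x axis, ± SE) for 23 of the 27 cholesterol and sterol genes (y axis), without and with the allowance for Doc2g and Cdhr1. The synthesis genes lie left of 0 under both fits for all but Ebp, which is at -0.05 without and 0.05 with the allowance, and Stard4 lies farthest left.

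Of the 17 called lower sterol genes, 10 had a promoter in the RefSeq table. The proximal promoters of 4 of them are shown because their genes fell together and because all 4 carry CCAAT, the motif of NF-Y, a partner of SREBP-2. Hmgcs1 also carries a match to the sterol regulatory element of SREBP-2. Each runs from 250 bases before to 50 bases after the gene start in RefSeq on GRCm38.p6, 5′ to 3′ on the strand of the gene, at chr13:119690101-119690400 on the plus strand, chr13:8885356-8885655 on the plus strand, chr5:4104648-4104947 on the minus strand and chr5:28071162-28071461 on the plus strand. Capitals mark CCAAT on either strand, which reads ATTGG on the other, and TCACNCCAC on either strand.
Hmgcs1: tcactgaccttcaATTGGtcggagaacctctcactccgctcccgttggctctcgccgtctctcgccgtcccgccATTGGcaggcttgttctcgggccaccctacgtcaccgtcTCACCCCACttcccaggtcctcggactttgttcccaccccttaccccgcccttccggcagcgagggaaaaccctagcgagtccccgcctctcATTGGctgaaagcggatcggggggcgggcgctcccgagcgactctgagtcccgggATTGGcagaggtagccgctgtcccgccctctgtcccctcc
Idi1: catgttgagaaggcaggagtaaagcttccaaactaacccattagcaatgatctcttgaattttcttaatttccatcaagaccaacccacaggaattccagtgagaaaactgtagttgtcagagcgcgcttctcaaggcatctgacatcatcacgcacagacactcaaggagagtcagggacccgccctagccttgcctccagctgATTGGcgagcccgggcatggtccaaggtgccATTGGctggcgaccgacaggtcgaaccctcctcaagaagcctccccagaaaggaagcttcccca
Cyp51: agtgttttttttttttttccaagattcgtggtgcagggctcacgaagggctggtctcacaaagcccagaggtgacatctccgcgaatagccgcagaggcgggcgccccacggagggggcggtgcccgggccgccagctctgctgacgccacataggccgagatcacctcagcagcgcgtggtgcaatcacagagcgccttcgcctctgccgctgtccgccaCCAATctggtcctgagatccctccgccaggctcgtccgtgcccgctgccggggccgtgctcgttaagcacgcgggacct
Insig1: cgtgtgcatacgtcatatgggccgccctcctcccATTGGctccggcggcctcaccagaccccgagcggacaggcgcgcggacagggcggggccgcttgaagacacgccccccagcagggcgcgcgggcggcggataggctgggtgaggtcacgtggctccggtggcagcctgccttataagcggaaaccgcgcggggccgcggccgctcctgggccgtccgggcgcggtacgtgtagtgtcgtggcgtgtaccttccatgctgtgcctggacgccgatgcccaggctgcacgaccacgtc

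CCAAT stood in all 10 of these promoters, and in 16 of the 18 list members that had one, where 37.4% of 32851 mouse promoters of the same length held it. Hmgcs1 carried 4 copies, Idi1 2, and Cyp51 and Insig1 1 each. The sterol regulatory element TCACNCCAC was found in Hmgcs1, as TCACCCCAC 137 bases before the start, and in no other of the 18, where 1.24% of all promoters held it. No copy of 1 motif overlapped a copy of the other. These are matches of letters in a fixed window and do not show binding.

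The other genes called with the allowance stood outside the sterol list. Coq10b, a mitochondrial protein that binds coenzyme Q (chromosome 1, 55052770 to 55072702, plus strand), had the smallest adjusted p of the 446 genes. Its lowest, median and highest levels were 683, 739 and 771 in fluoxetine mice, against 845, 902 and 919 in vehicle mice. The groups did not overlap. The log2 fold change was -0.28 ± 0.03 without the allowance (limma adjusted p = 7.37e-05) and -0.25 ± 0.04 with it (adjusted p = 0.0108).

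Abhd5, the coactivator of the lipase of lipid droplets, had 563, 600 and 636 in fluoxetine mice, against 601, 657 and 687 in vehicle mice, and the groups overlapped. It fell by 0.18 ± 0.03 on the log2 scale with the allowance (limma adjusted p = 0.0397) and by 0.12 ± 0.03 without it (adjusted p = 0.044). Mrtfa, an actin-sensing coactivator of serum response factor, was the only well expressed gene called higher with the allowance. It had 1346, 1450 and 1556 in fluoxetine mice, against 1207, 1304 and 1386 in vehicle mice, so most fluoxetine mice were above the vehicle range, and the log2 fold change was 0.22 ± 0.04 with the allowance (limma adjusted p = 0.0149) and 0.14 ± 0.03 without it.

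The remaining 3 were named after their values were seen, being below the median level or predicted genes. Kctd7, a potassium channel tetramerisation domain protein linked to epilepsy in people, had a log2 fold change of -0.32 ± 0.06 with the allowance (limma adjusted p = 0.0266) and -0.20 ± 0.05 without it. Gm19439, a predicted gene, had 73.6, 92.2 and 104 in fluoxetine mice, against 33.8, 55.3 and 72.7 in vehicle mice, with no overlap (log2 fold change 0.995 ± 0.17 with the allowance, limma adjusted p = 0.0189). Gm13736, also predicted, was called only with the allowance (3.20 ± 0.43, limma adjusted p = 0.00611). It had 8.83, 16.9 and 25.0 in fluoxetine mice and 0, 16.9 and 26.4 in vehicle mice, and vehicle females 1, 2 and 4 were at 0, so the medians of the groups hardly differed.

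**Figure D3:**
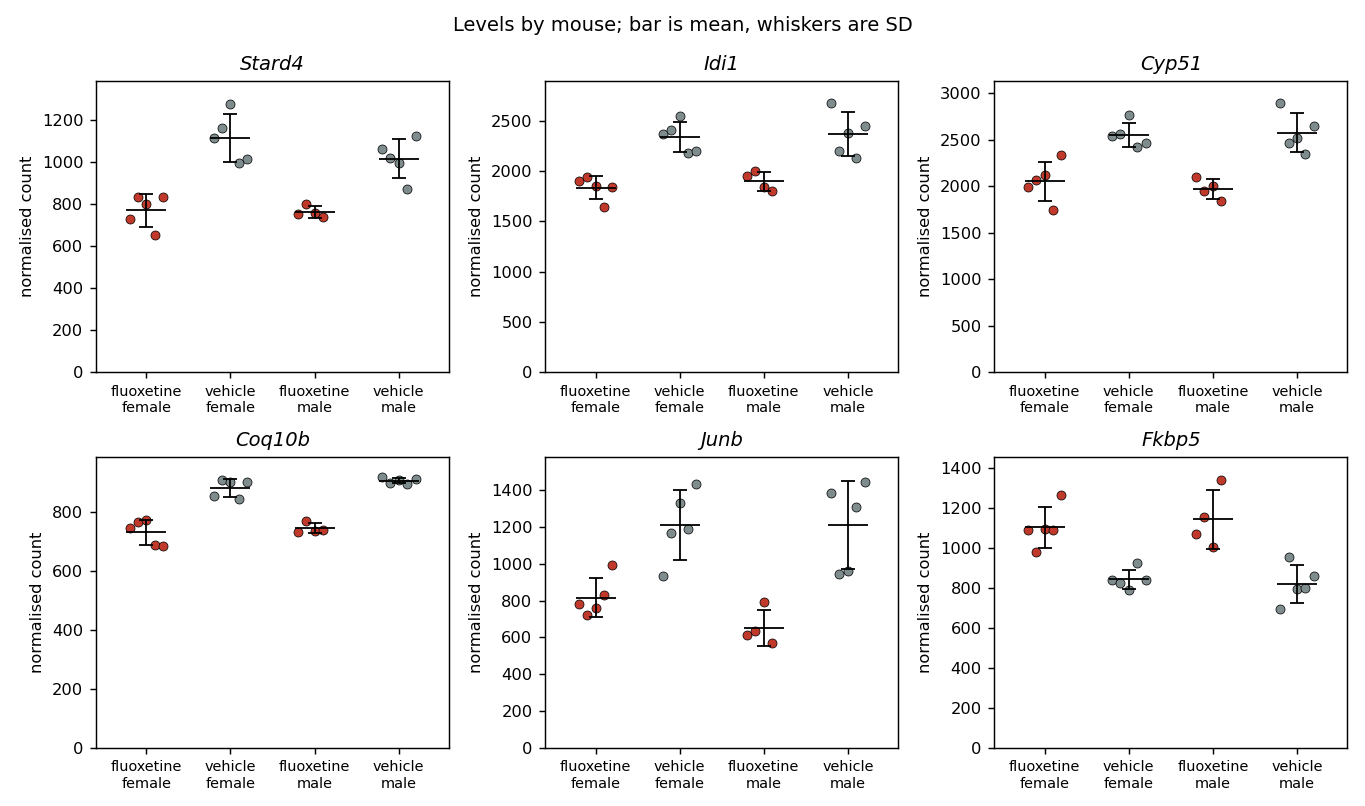
Normalised counts (y axis, from 0) of Stard4, Idi1, Cyp51, Coq10b, Junb and Fkbp5 in each mouse, by drug and sex (x axis). Points are mice, the bar is the group mean and whiskers are the SD. Fluoxetine mice lie below vehicle mice without overlap for Stard4, Idi1, Cyp51 and Coq10b and above them for Fkbp5, and for Junb the lowest vehicle female, at 934, lies below the highest fluoxetine female, at 994.

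Of the immediate early genes a part was lower with fluoxetine, and the calls were made only without the allowance. Of 32 tested, 11 fell, 0 rose and 21 did not pass without the allowance, where 1.3% of all genes were called lower, and 0 of 32 passed with it. The median log2 fold change of the 32 was -0.28 without the allowance and -0.31 with it, while 9 of the 11 that fell had a smaller change with it, and 19 of the 32 had an unadjusted p under 0.05 and a negative sign with it. The genes that fell were the transcription factors Junb, Fos, Egr2, Nr4a1, Nr4a3 and Klf10, the synaptic gene Arc, the phosphatases Dusp1 and Dusp6, the growth arrest gene Gadd45b and the clock gene Per1. In 10 of the 11, each fluoxetine mouse was below the vehicle mean of its sex, a count that again describes genes picked by the same values. When 1 library was left out, 7 (without fluoxetine male 1, 2 or 4) to 16 (without vehicle female 1) were called lower without the allowance. With it 0 to 6 (without fluoxetine female 5) were. In the same fits the number of all genes called ran from 54 to 2727 without the allowance and from 0 to 51 with it.

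Arc, whose protein promotes the removal of AMPA receptors from synapses, had a lowest, median and highest level of 1120, 1710 and 3322 in fluoxetine mice, against 2462, 3960 and 5492 in vehicle mice. The 4 fluoxetine males were the lowest 4 of the 19 mice, and fluoxetine females overlapped vehicle females. The log2 fold change was -1.02 ± 0.19 without the allowance (limma adjusted p = 0.0116) and -0.77 ± 0.23 with it (adjusted p = 0.228).

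Junb, a partner of Fos in the AP-1 factor, had 567, 758 and 994 in fluoxetine mice, against 934, 1249 and 1445 in vehicle mice, with 1 fluoxetine female inside the vehicle range. Its log2 fold change was -0.71 ± 0.10 without the allowance (limma adjusted p = 0.00236) and -0.61 ± 0.13 with it (adjusted p = 0.0872). Fos itself had 303, 591 and 863 in fluoxetine mice, against 528, 839 and 1415 in vehicle mice. The groups overlapped over a wide range, and the log2 fold change was -0.68 ± 0.15 without the allowance (limma adjusted p = 0.0269) and -0.68 ± 0.20 with it (adjusted p = 0.19).

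The orphan nuclear receptor Nr4a3 and its relative Nr4a1 fell by 0.66 ± 0.11 and 0.59 ± 0.10 on the log2 scale without the allowance (limma adjusted p = 0.00727 and 0.00996). Klf10, a Krüppel-like repressor, fell by 0.63 ± 0.09 (limma adjusted p = 0.00236). Dusp1 and Dusp6, which switch off MAP kinases, fell by 0.45 ± 0.12 and 0.43 ± 0.09 (limma adjusted p = 0.0465 and 0.0239). Other members of the same class did not pass: Jun had a log2 fold change of 0.00 ± 0.04, Egr1 -0.39 ± 0.12, Npas4 -0.27 ± 0.15 and the neurotrophin Bdnf -0.17 ± 0.08.

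**Figure D4:**
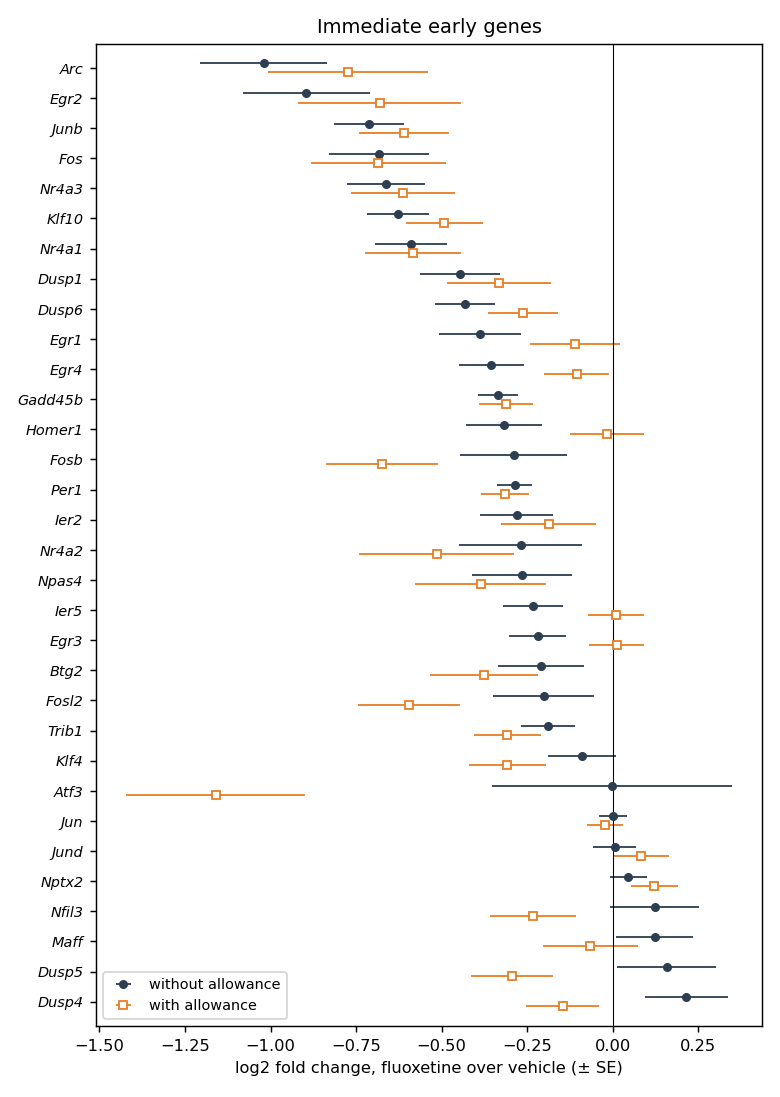
Log2 fold change of fluoxetine over vehicle (x axis, ± SE) for the 32 immediate early genes (y axis), without and with the allowance for Doc2g and Cdhr1. Arc lies farthest left without the allowance, at -1.02, and most genes lie left of 0 under both fits.

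Genes that respond to glucocorticoids moved in both directions. Of 22 tested, 2 rose, 3 fell and 17 did not pass without the allowance, where 1.27% of all genes were called higher and 1.3% lower, and 0 passed with it. Fkbp5, a cochaperone that restrains the glucocorticoid receptor and is induced by it, had a lowest, median and highest level of 979, 1091 and 1342 in fluoxetine mice, against 696, 832 and 956 in vehicle mice. The groups did not overlap, and the log2 fold change was 0.43 ± 0.06 without the allowance (limma adjusted p = 0.00236) and 0.41 ± 0.08 with it (adjusted p = 0.0705).

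Hif3a, a hypoxia-inducible factor subunit that glucocorticoids raise, had 317, 354 and 475 in fluoxetine mice, against 152, 246 and 296 in vehicle mice. Here too each fluoxetine mouse was above each vehicle mouse, and the log2 fold change was 0.65 ± 0.10 without the allowance (limma adjusted p = 0.00428) and 0.55 ± 0.13 with it (adjusted p = 0.113). Nr3c1, the glucocorticoid receptor, had 2020, 2321 and 2878 in fluoxetine mice, against 2459, 3191 and 3426 in vehicle mice. Male groups were apart and female groups overlapped, with a log2 fold change of -0.41 ± 0.07 without the allowance (limma adjusted p = 0.00513) and -0.24 ± 0.07 with it (adjusted p = 0.166).

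Pdk4, the kinase that turns off pyruvate dehydrogenase, and Per1 also fell, by 0.42 ± 0.10 and 0.29 ± 0.05 on the log2 scale without the allowance (limma adjusted p = 0.0423 and 0.0116). Sgk1 and Tsc22d3, classic targets of the receptor, had log2 fold changes of -0.03 ± 0.08 and -0.06 ± 0.07 and did not pass.

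The largest rises without the allowance were those of olfactory bulb genes. Of 19 list members tested, 9 were called, all higher, and 10 did not pass, where 1.27% of all genes were called higher. When 1 library was left out this count ran from 0 (without any 1 of the 4 fluoxetine males, among others) to 17 (without vehicle female 4). All genes called in the same fits ran from 54 to 2727, the highest also without vehicle female 4. The list had a median log2 fold change of 1.68, and all 19 were above 0. With the allowance 0 of 19 passed and the median was 0.03, which follows in part from the use of Doc2g and Cdhr1 as the covariate. Both are among the 19, and with the allowance their changes, -0.03 and 0.03, mirror each other by construction and are not results. The median of 0.03 is the value of Cdhr1 itself. The summed level of the list was 16426 to 34072 in fluoxetine mice and 7458 to 38407 in vehicle mice. Eomes, a transcription factor of mitral and tufted cells, had a log2 fold change of 2.68 ± 0.71 without the allowance (limma adjusted p = 0.0495) and -0.09 ± 0.18 with it. Th, the enzyme of dopamine synthesis, had 1.95 ± 0.50 and Calb2, the calretinin gene of granule and periglomerular cells, had 1.71 ± 0.42, and both were within 0.07 of 0 with the allowance.

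Other named rises went the same way. Pbx3 and Tshz1, transcription factors of bulb interneurons, had log2 fold changes of 1.26 ± 0.32 and 1.11 ± 0.28 without the allowance and 0.07 ± 0.13 and 0.06 ± 0.13 with it. Pcbp3, Mdga1, Grm4 and Hap1 ran from 0.66 to 0.81 without the allowance, and with it from 0.04 to 0.23. Igfbpl1, a gene of migrating neuroblasts, was at 1.20 ± 0.31 without the allowance and 0.35 ± 0.30 with it. It was the 1 called of 22 neuroblast and proliferation genes (4.55%), where 2.57% of all genes were called. Syt6, Reln, Nos1, Acan, Sv2c, Kcnd3 and the vesicular monoamine transporter Slc18a2 were the called higher members of neuronal lists, from 0.28 to 1.45 without the allowance and from 0.01 to 0.28 with it. The part of bulb RNA in these differences was not tested beyond this covariate.

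Genes of other cell types were also among the falls. Sox8, a transcription factor of oligodendrocytes, fell by 0.25 ± 0.04 on the log2 scale without the allowance (limma adjusted p = 0.0116), with 749, 830 and 1044 in fluoxetine mice against 946, 998 and 1079 in vehicle mice, and was at -0.24 ± 0.06 with it. It was the 1 called gene of 23 on the myelinating oligodendrocyte list (4.35%), where 2.57% of all genes were called. Rgs5, a marker of pericytes, fell by 0.26 ± 0.07 (limma adjusted p = 0.0444) and was at -0.29 ± 0.09 with the allowance. Arl4d, a small GTPase, fell by 0.41 ± 0.08 (limma adjusted p = 0.024) and was at -0.39 ± 0.11 with it.

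The mitochondrial subunit gene mt-Nd6 fell by 0.63 ± 0.16 (limma adjusted p = 0.0472). The call was lost in 17 of 29 alternative settings. It had 574, 1063 and 1454 in fluoxetine mice, against 912, 1555 and 3711 in vehicle mice. It is read from the strand opposite its neighbours, and whether counting used strand is not given in the sources used here. None of the 50 nuclear and mitochondrial oxidative phosphorylation genes on the list used was called, where 2.57% of all genes were.

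The neuronal genes Rorb, Kcnc2, Cort, Dlg2, Rims1 and Rims2, the clock gene Hlf and the thyroid hormone receptor Thrb also fell without the allowance, by 0.17 to 0.33 on the log2 scale. With it they were at -0.19 to -0.03 and did not pass. Rorb marks neurons of the granular layer, Kcnc2 is a potassium channel of fast-spiking cells, Cort is the cortistatin peptide of interneurons, and Dlg2, Rims1 and Rims2 are scaffolds of the synapse.

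Of 19 genes of serotonin handling tested, 1 was called without the allowance, Slc18a2, which rose, where 2.57% of all genes were called, and none passed with it. Htr1a, the inhibitory receptor that serotonin acts on in pyramidal cells, had a lowest, median and highest level of 436, 538 and 668 in fluoxetine mice, against 450, 589 and 686 in vehicle mice (log2 fold change -0.06 ± 0.09 without the allowance and 0.20 ± 0.08 with it). Htr2a, the excitatory receptor of the same cells, had 1426, 1711 and 2193 in fluoxetine mice, against 1313, 1635 and 2054 in vehicle mice (0.06 ± 0.09 without and 0.24 ± 0.10 with it). Htr2c had 753, 1225 and 1580 in fluoxetine mice, against 594, 1152 and 1962 in vehicle mice (-0.04 ± 0.21 without and 0.29 ± 0.25 with it). For these 3 receptors the groups overlapped almost fully, the sign of Htr1a and Htr2c differed between the fits, and none passed in either (limma adjusted p with the allowance 0.363, 0.371 and 0.669). Slc6a4, the transporter that fluoxetine blocks, was not analysed here.

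Over the other lists some genes were called without the allowance, where 2.57% of all genes were called, and 0 with it. Rorb was the 1 called of 20 upper layer genes, Syt6 the 1 of 15 deep layer genes, Rgs5 the 1 of 24 vascular genes, Acan the 1 of 19 matrix genes, Dlg2 the 1 of 34 postsynaptic genes and Thrb the 1 of 12 thyroid hormone genes. Sv2c rose and Rims1 and Rims2 fell among 30 presynaptic genes, Kcnd3 rose and Kcnc2 fell among 30 potassium channels, and Reln and Nos1 rose while Kcnc2 and Cort fell among 24 interneuron genes. Of 20 clock genes Per1, Hlf and Rorb fell. The share of the list called was 16.7% for interneuron, 15% for clock and 10% for presynaptic genes. Leaving out 1 library changed these counts, with 0 to 7 interneuron genes higher and 0 to 6 lower. Clock genes lower ran from 1 to 8 and presynaptic genes lower from 0 to 5. The highest counts came without vehicle female 4, or for clock genes without fluoxetine female 2. In the same fits the number of all genes called ran from 54 to 2727, the highest also without vehicle female 4. The list counts therefore moved along with the count of all genes. Rpl5, at 0.10 ± 0.03, was the 1 called of 59 ribosomal protein genes, and none was called of 14 striatal, 16 oligodendrocyte precursor, 9 choroid plexus and 8 blood genes.

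Several programs gave no calls without or with the allowance: 27 genes of lysosome and phospholipid storage (median log2 fold change 0.00 without and 0.02 with it), 26 of the unfolded protein response (0.01 and 0.08), 21 of astrocytes (0.01 and -0.03), 20 of microglia (-0.04 and -0.02), 17 neurotrophins and growth factors (0.00 and -0.03) and 23 of cyclic AMP signalling (-0.04 and 0.04). Of all genes 2.57% were called without the allowance and 0.0633% with it. At these shares lists of this length can hold no called gene, so the counts do not show that these programs were unchanged. Gfap had a log2 fold change of 0.29 ± 0.10 and Pvalb -0.25 ± 0.10 without the allowance, and -0.02 ± 0.08 and 0.08 ± 0.07 with it, and neither passed. Dyrk1a had 2066, 2155 and 2272 in fluoxetine mice, against 2163, 2221 and 2327 in vehicle mice, a log2 fold change of -0.05 ± 0.02 that did not pass (limma adjusted p = 0.22).

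Interferon and complement genes did not pass the test. All 25 tested had a log2 fold change above 0 without the allowance, with a median of 0.27, and 23 of 25 did with it, with a median of 0.16. In either fit 0 were called, where 2.57% of all genes were called without the allowance and 0.0633% with it. Usp18, which restrains interferon signalling, had a lowest, median and highest level of 29.5, 38.2 and 168 in fluoxetine mice, against 22.5, 28.5 and 32.8 in vehicle mice (log2 fold change 0.57 ± 0.23, limma adjusted p = 0.151). Ifit1, an antiviral RNA-binding protein, had 60.4, 66.0 and 254 in fluoxetine mice, against 44.7, 57.8 and 69.6 in vehicle mice. The highest fluoxetine mouse stood far above the fluoxetine median for both genes.

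The comparison was also made within each sex, without the allowance. In females 4 genes were called by limma (0.023%), and all were lower: Coq10b (-0.27 ± 0.04, adjusted p = 0.0162), Stard4 (-0.53 ± 0.08, adjusted p = 0.0162), Insig1 (-0.38 ± 0.06, adjusted p = 0.0378) and the brain cytoplasmic RNA Bc1, which was named after its values were seen. In males 1601 genes were called (9.22%), 866 higher (4.99%) and 735 lower (4.23%), beside the bulb marker groups that did not overlap in males. Leaving out 1 library gave 242 (without fluoxetine male 2) to 2402 (without vehicle female 4) genes in males and 0 to 6 in females.

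For the sterol list the median log2 fold change of the 27 genes was -0.23 in females, with 2 called lower, and -0.19 in males, with 14 called lower. For the immediate early list the median was -0.20 in females, with 0 called, and -0.31 in males, with 13 called lower. Arc had -0.57 ± 0.21 in females (limma adjusted p = 0.85) and -1.53 ± 0.23 in males (adjusted p = 0.00679). For the olfactory bulb list the median was 0.70 in females, with 0 called, and 2.78 in males, with 17 called higher.

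No gene passed the test of a difference in response between the sexes: limma called 0 of 17365 (0%), with 1692 at an unadjusted p under 0.05, and edgeR on recovered counts also called 0. The difference for Arc, female minus male, was 0.97 ± 0.31 (limma adjusted p = 0.488). The 4 genes of smallest p did not pass either. They were A730046J19Rik (-2.96 ± 0.62), Ccdc114 (-1.001 ± 0.22), Trak2 (0.31 ± 0.07) and Nhsl1 (0.27 ± 0.06), each with an adjusted p of 0.488. Of these, Trak2, an adaptor for mitochondrial transport along axons, was at -0.06 ± 0.05 in females and -0.37 ± 0.05 in males. With the level of Doc2g and Cdhr1 as a covariate the test between the sexes again called 0, with 906 genes at an unadjusted p under 0.05.

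**Figure D5:**
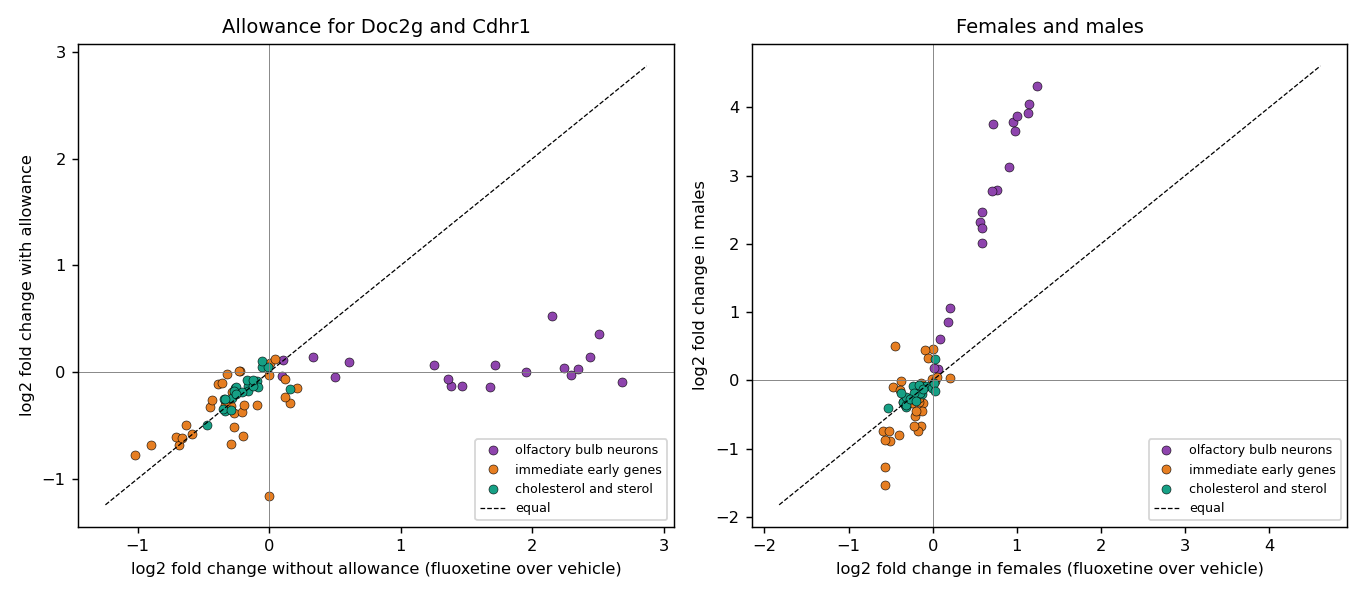
Log2 fold changes of fluoxetine over vehicle for genes of the olfactory bulb, immediate early and sterol lists, one point per gene, with the dashed line where both axes are equal. In the left panel (without allowance on the x axis, with it on the y axis) bulb genes drop to near 0, Doc2g and Cdhr1 by construction. Sterol genes stay nearer the line, though 12 of the 17 called lower, not all drawn, had a smaller change with the allowance. In the right panel (females on the x axis, males on the y axis) bulb genes lie above the line.

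The same treatment was given to heterozygous mice, 10 with fluoxetine and 10 with vehicle. In a fit of the 39 libraries of both genotypes, with 17754 genes tested, no gene passed the test of a difference in the effect of fluoxetine between wild-type and heterozygous mice (limma called 0, 0%, with 3360 at an unadjusted p under 0.05, and edgeR called 0). Heterozygous mice had 61 genes higher and 92 lower with fluoxetine in that fit. Stx17 and Ccl28, among the 4 genes of smallest p for the difference, did not pass, each with a limma adjusted p of 0.137. With the level of Doc2g and Cdhr1 as a covariate the genotype test again called 0, with 1011 genes at an unadjusted p under 0.05. The reason for the lower number was not tested. A test that calls 0 does not show that the genotypes responded alike.

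Here and in the next paragraph, the effect in wild-type mice is given from the 19-library fit and that in heterozygous mice from the 39-library fit. Both are without the allowance. Stard4 had -0.47 ± 0.06 in wild-type and -0.31 ± 0.06 in heterozygous mice (limma adjusted p = 0.00447), and Cyp51 had -0.35 ± 0.05 and -0.22 ± 0.05 (adjusted p = 0.0254 in heterozygous mice). Idi1 had -0.33 ± 0.04 in wild-type and -0.19 ± 0.06 in heterozygous mice, and Insig1 -0.29 ± 0.05 and -0.08 ± 0.09, neither called in heterozygous mice. Over the list, 4 of the 27 were called lower in heterozygous mice, where 92 of all 17754 genes were, and the median was -0.08.

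For immediate early genes the median in heterozygous mice was -0.47, with 12 of 32 called lower, where 92 of all 17754 genes were. Arc had -1.02 ± 0.19 in wild-type and -1.11 ± 0.20 in heterozygous mice (limma adjusted p = 0.00447). Hif3a had 0.65 ± 0.10 and 0.69 ± 0.13, and Fkbp5 0.43 ± 0.06 and 0.85 ± 0.21, both called in heterozygous mice too. The bulb list had a median of -0.42 in heterozygous mice, with 0 called, opposite in sign to that in wild-type mice. Coq10b was at -0.28 ± 0.03 in wild-type and -0.04 ± 0.04 in heterozygous mice, and the difference, -0.24 ± 0.06, did not pass (limma adjusted p = 0.137).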

How the data were processed

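RNA was measured in prefrontal cortex from stranded libraries of polyadenylated RNA, per the labels' protocols. The submitters' processing notes name GRCm38 and the tools Salmon 0.11.2, DESeq2 1.19.11 and R 3.6.0, without saying what each did. The authors deposited 1 table of normalised values, a signal per gene and library. Dividing by the smallest step of each library gave whole counts, within 0.01 counts, for 100% of values. Of 18088 gene identifiers, 18077 matched a symbol, and 20 symbols stood for more than 1 identifier.

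Fits were made with limma 3.58.1 (R 4.3.3), with a trend on the mean, to log2(value + 1) of the 19 libraries, a scale on which low genes change less than they do in counts. Genes had to reach 10 in 4 or more libraries. The model held sex and drug (16 residual degrees of freedom), and in the second fit also the mean log2 level of Doc2g and Cdhr1 (15 residual degrees of freedom). Effects within each sex and their difference came from 1 mean per group, and the difference between genotypes from 39 libraries in 8 groups. P-values were adjusted by Benjamini-Hochberg over all tested genes, at 0.05. Marker levels were compared by exact permutation within sex. As an alternative, recovered counts went into edgeR 4.0.16 (quasi-likelihood). Steps were tested on simulated data.

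The members and the 30 gene lists were chosen with earlier results of these data known. Named genes followed a rule: from the called genes whose level reached the median, leaving out X and Y linked and predicted ones, the top 12 rises and top 12 falls without and with the allowance, the 5 largest within each sex, up to 4 called members of a list, the 4 of smallest p where a test of a difference called none, and 12 set genes. Other list members are given by value as part of their list, and genes outside the rule are marked as such. A few genes counted in these lists and rules are not reported here. Alternatives were another pseudocount, other filters, TMM factors, quantile normalisation, array weights, the replicate number as a block, all 59 libraries, edgeR, the bulb list as covariate, and leaving out each library. The labels name no sequencing batch.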

Additional observations from a re-analysis of the deposited data

Results flagged for a closer look

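Among named genes, 22 of 292 groups of 4 or 5 mice had 1 mouse far from the others, where chance flags about 1 in 20 groups. Fluoxetine male 2 was high for Insig1 at 1988 and for Coq10b at 769, and fluoxetine male 4 was low for Rgs5 at 3579, for Rims2 at 3207 and for Ccdc114 at 63.0. Fluoxetine female 2 was low for Nos1 at 1191 and high for Hlf at 5175, and fluoxetine female 5 was high for Sox8 at 1044.

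Vehicle male 1 stood above the other vehicle males for bulb genes, with normalised counts of 277 for Eomes, 851 for Doc2g, 393 for Th, 1317 for Calb2, 1203 for Tshz1, 52.2 for Tbx21, 72.7 for Scgn and 142 for Shisa3. Other vehicle mice that stood apart were male 5 (710.4 for Grm4 and 468 for Kctd7, both high), male 2 (3290.0 for Kcnc2, high), female 4 (822 for Rorb, low), female 1 (5068 for Rgs5, high) and female 2 (2327 for Dyrk1a, high). Nhsl1 is given because all fluoxetine females lay above all vehicle females and all fluoxetine males below all vehicle males, with a difference of effects, female minus male, of 0.27, which did not pass the limma test of that difference (adjusted p = 0.488).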

How the results depend on the processing

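The number of called genes depended on the settings more than the direction of single genes did. Without the allowance, 446 genes became 5648 with array weights, 80 with all 59 libraries in the fit, 284 with edgeR and 1182 as the mean of female and male effects. With the allowance, 11 became 18 with quantile normalisation (38.9% of calls higher, against 27.3%), 24 with all 59 libraries, which kept 3 of the 11, and 1154 with the marker slope taken from all 59 libraries. In females 4 became 1 with all 59 libraries and 7 with the covariate. In males 1601 became 5290 with array weights, 19 with all 59 libraries and 1 with the covariate. The genotype difference gave 3196 genes with array weights. The causes were not tested.

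Leaving out 1 library gave 54 genes (without fluoxetine male 4) to 2727 (without vehicle female 4) without the allowance, where 17 of 19 such counts moved by over 1.5 times. With the allowance it gave 0 (without vehicle female 1) to 51 (without fluoxetine female 5). The range was 0 to 6 in females, 242 (without fluoxetine male 2) to 2402 (without vehicle female 4) in males, 0 to 1 for the sex difference (1 without fluoxetine male 4), and 0 to 666 for the genotype difference (666 without heterozygous vehicle male 1). The marker difference ran from 2.09 to 2.66. Sterol genes called lower numbered 12 to 20 of 27 without the allowance when 1 library was left out, and 0 to 5 with it (0 without vehicle female 1). With all 59 libraries they numbered 7 and 1. Immediate early genes called lower numbered 7 to 16, and 5 with all 59 libraries. The bulb list had 0 calls with edgeR and with all 59 libraries. Without the allowance Stard4, Idi1, Cyp51, Hmgcs1, Hif3a, Arc and Junb stayed called under all 29 alternatives. With it, Stard4 lost its call in 1 of 30 alternatives, without vehicle female 1. Idi1, Coq10b and Mrtfa lost theirs in 2 each, Insig1 in 6, Kctd7 in 9, and Cyp51 and Abhd5 in 18 each. Gm13736 and Gm19439 lost theirs in 4 and 3 of 29.

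The sign of Htr2c, -0.04, changed in 6 of 29 alternatives, among them the replicate block (0.017). Over the 29 its values ran from -0.15 to 0.043, the highest without vehicle male 5. Deviations of same-numbered mice had correlations of -0.357 to 0.42 over 9 pairs, of which 4 were above 0.1. Bulb differences between mice were left in these deviations, so they cannot decide whether the numbers pair the mice. The replicate block gave 625 genes without the allowance, 12 with it, 6 in females, 1593 in males, and 0 for both differences. Of 1739 single-gene values without the allowance under alternatives, 1162 kept direction and side of the threshold, 564 lost the call, 7 gained one and 6 changed sign. With it, 243 of 328 kept both and 85 lost the call. The comparison has 9 against 10 mice. Male groups were apart in bulb RNA, so effects in males, large or small, cannot be told apart from bulb content.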
